A study of Saccharomyces cerevisiae with 12 samples.

Results

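The fuzziest nucleosomes of the yeast genome were taken as the entries of a wild-type position list, WT1, whose reads were most widely spread. An entry qualified when it lay on a nuclear chromosome, held at least 50 reads and reached a peak height of at least 0.3. Its fuzziness is the standard deviation of its read positions in bp, and entries with fuzziness in the highest 5 percent were the members. The rule gave 3605 members out of 72081 qualifying entries, from 76048 nuclear entries in all. The members were thus chosen by fuzziness, reads and height in WT1, and their WT1 values are a description that supports nothing by itself.

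Micrococcal nuclease digests the DNA between nucleosomes, so the sequenced fragments show where histones protected the DNA in each cell of the culture. A sharply placed nucleosome sits at the same bases in most cells, while a fuzzy one occupies different positions from cell to cell. In yeast the array is laid out from the nucleosome-depleted promoter, and phasing is known to fade into the gene body. Remodelers of the ISWI and CHD1 families space and align these arrays, and Ioc3 is the subunit that, with the ATPase Isw1, makes up the ISW1a remodeler.

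MNase-seq was run on Saccharomyces cerevisiae BY4741, a laboratory strain, grown at 30 °C in YPD (rich glucose medium) to mid-log phase. Nuclease was used at 600, 1200 and 2400 gel unit/ml, without a record of which library received which amount. There were 12 samples, a pair of biological replicates for each of 6 groups: the wild types WT1, WT2 and WT3, a knockout (Ioc3-KO), and 2 strains with paired amino acid changes in Ioc3, labelled Ioc3-R739E/R742E and Ioc3-Q251K/D252K. The labels do not say whether a mutant was made as more than 1 clone or how the altered protein was expressed. Both replicates of a group were joined by the authors in 1 list, called a pool here, so the spread between replicates could not be seen and each Ioc3 genotype was a single pool. Values of several pools are given in the order just used. WT1 was left out of the wild-type reference because it chose the members, which left WT2 and WT3.

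The 6 pools held 76013 to 77652 entries and 10282804 to 10350515 assigned reads, with a median of 134 to 139 reads per nuclear entry. Median fuzziness over entries past the limits was 31.6, 31.2 and 31.6 bp in the wild-type pools and 33.0, 32.2 and 32.0 bp in the Ioc3 pools. The IOC3 coding region (chromosome VI, 169922 to 172285, sacCer3) held 5 entries in Ioc3-KO and 16 to 18 in the other pools, which checks the knockout label.

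In WT1 the members ran from 41.8 to 57.8 bp of fuzziness, with a median of 43.5 bp against 31.6 bp over all qualifying entries. Their peak height had a median of 0.818 against 1.48, and they held a median of 117 reads against 139. The last members inside the limit were an entry in NIT1 (chromosome IX, 34318) and one in DMA2 (chromosome XIV, 409728), the latter the gene of a ubiquitin ligase of the spindle checkpoint. The first entries outside it lay in EMW1 (chromosome XIV, 45953) and in the Ty element gene YPL257W-B (chromosome XVI, 59836). All 4 had a fuzziness of 41.8 bp, so the limit cuts through a continuous range.

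The deposited numbers set a ceiling that bears on what the members are. Mean read positions lay between -73 and 72 bp from the summit in all 6 lists, which is a window of 146 positions, and reads spread evenly over such a window would have a standard deviation of 42.1 bp. Of the members, 3092 (85.8%) exceeded this value, and by the rule 0 of the other qualifying entries did. A value above an even spread requires more reads near the edges of the window than at its centre. For 1112 members the fuzziness was also above what could arise if each read were given only to its nearest summit, so reads of adjoining nucleosomes can be counted in several entries.

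**Figure D1:**
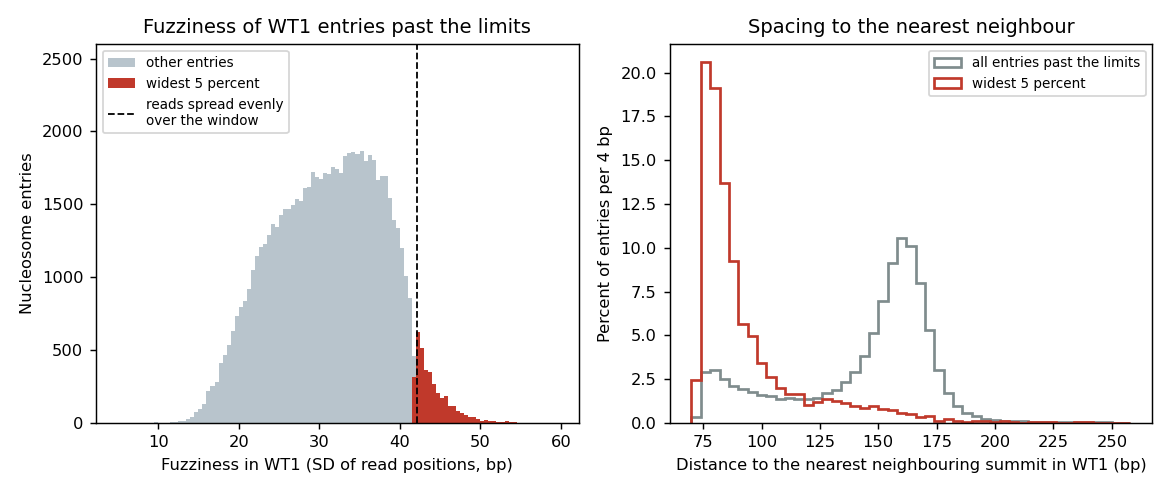
Left, the number of WT1 entries past the limits per 0.5 bp of fuzziness, with the members in red and a dashed line at 42.1 bp, the value of reads spread evenly over 146 positions. Right, the percent of entries per 4 bp of distance to the nearest neighbouring summit: the members pile up near 73 to 100 bp, where all entries together peak near the usual spacing of about 160 bp.

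The members lay between closely packed calls. The nearest neighbouring summit in WT1 was a median of 84 bp away, against 154 bp for all qualifying entries, and the shortest spacing in any list was 73 bp. The 2 neighbours of a member lay a median of 195 bp apart, against 324 bp, so the room around a member was about that of 1 regular nucleosome, not 2. Both neighbours were under 120 bp away for 2033 members (56.4%), against 6.26% of all entries. A single neighbour was that close for 1128 members (31.3%, against 16.1%), and 444 members (12.3%, against 77.6%) had regular spacing on both sides. The limit of 120 bp was chosen after the distances were seen. Fuzziness and spacing in WT1 share the same reads, so this association is not independent of the rule. Whether a member is a nucleosome of its own or a call between 2 others was not tested. Members are thus listed entries, and the name fuzziest nucleosomes says no more than that.

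The same crowding was seen in lists that had no part in the choice. Around the matched entries in WT2 the nearest summit lay a median of 96 bp away, against 155 bp for all entries, and in WT3 the values were 96 and 154 bp. In Ioc3-KO they were 95 and 151 bp, in Ioc3-R739E/R742E 94 and 152 bp, and in Ioc3-Q251K/D252K 94 and 153 bp. The crowding around matched sites was thus alike in wild-type and Ioc3 pools. It cannot be set directly against the 84 bp of WT1, which covers all members, matched or not. Members unmatched in WT2 were the more crowded in WT1, with neighbours a median of 179 bp apart, against 219 bp for those matched.

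Many members had no counterpart elsewhere. An entry within 70 bp was found in WT2 for 2458 members (68.2%) and in WT3 for 2427 (67.3%), where 97.4% and 97.3% of all qualifying entries were matched. In Ioc3-KO 2631 members (73.0%) were matched, in Ioc3-R739E/R742E 2540 (70.5%) and in Ioc3-Q251K/D252K 2541 (70.5%). The Ioc3 pools thus held counterparts for more members than either wild-type pool, by 3.56 percentage points on average. In an exact two-sided permutation test of 3 pools against 2, p was 0.2, the smallest that test allows. Over all qualifying entries the means were 97.41% in the Ioc3 pools and 97.35% in WT2 and WT3 (same permutation test, p = 0.8). The Ioc3 lists also held more nuclear entries, 76655 to 77288, against 75746 in WT2 and 75969 in WT3. The part of this in the matching was not tested. In all 5 other lists 1356 members (37.6%) were matched, against 93.3% of all entries, and 198 members were matched in none. The nearest entry was taken from the WT1 side only, so it could also be nearest to another WT1 entry. With mutual nearest matches required, 1088 of the 1356 members remained, and 66285 of the 67233 entries. The shares and median fuzziness of matched members given below were not retaken for mutual matches.

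Where a member was missing, its neighbours usually stood side by side. Of the 1147 members without an entry in WT2, 989 (86.2%) had their 2 flanking summits recovered within 40 bp and adjacent in that list. The gap between these was a median of 175 bp, close to 1 regular nucleosome repeat. In WT3 the count was 1029 of 1178 (87.4%), and in Ioc3-KO 800 of 974 (82.1%). Over all unmatched qualifying entries, members among them, the shares were 78.1, 78.0 and 67.1% in WT2, WT3 and Ioc3-KO. With no entry within 70 bp of the member, flanks recovered this closely were almost bound to be adjacent. Their gap was likewise bound to the spacing of the flanks in WT1, a median of 179 bp for members unmatched in WT2. The counts thus show how often both flanks recurred without the member, and adjacency adds little to that.

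**Figure D2:**
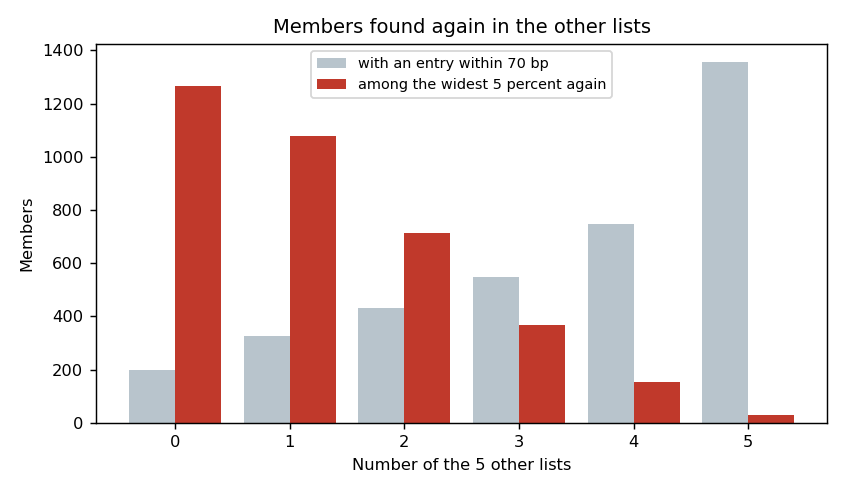
The number of members (of 3605) by how many of the 5 other lists held an entry within 70 bp (grey) and by how many of them ranked that entry among their own widest 5 percent (red). 1356 members were matched in all 5 lists, while 1265 were among the widest in none and 30 in all.

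Matched members stayed wide, though less so than in the list that chose them. Their median fuzziness was 40.9 bp in WT2 and 40.8 bp in WT3, and 40.4, 41.0 and 40.9 bp in the 3 Ioc3 pools. All matched entries had medians of 31.0, 31.3, 32.6, 31.9 and 31.7 bp in the same order. The members thus lost part of their WT1 excess in each of the other pools, also in wild type, and kept most of it.

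Among the widest 5 percent of the other list were 960 of the 2458 members matched in WT2, which is 39.1% (95% exact binomial interval 37.1 to 41.0%, counting error only). In WT3 the share was 37.5%, in Ioc3-R739E/R742E 35.7%, in Ioc3-Q251K/D252K 34.3% and in Ioc3-KO 27.3% (25.6 to 29.1%). The share was lower in the 3 Ioc3 pools, with a mean of 32.4% ± 4.48 (SD, n = 3), than in WT2 and WT3, with a mean of 38.3%, at p = 0.2 in the same exact permutation test. Over all matched entries past the limits the share was lower too, 2.85% against 3.27% (exact permutation p = 0.2). Each list set its own limit, and that of Ioc3-KO was the highest at 42.3 bp against 41.6 and 41.7 bp in WT2 and WT3. Ioc3-KO also held the most entries at or above the WT1 limit, 4564 (6.21%) against 3353 and 3447 in WT2 and WT3. Over all lists, 2340 members were again among the widest in at least 1 of the 5, 1265 in none and 30 in all.

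**Figure D3:**
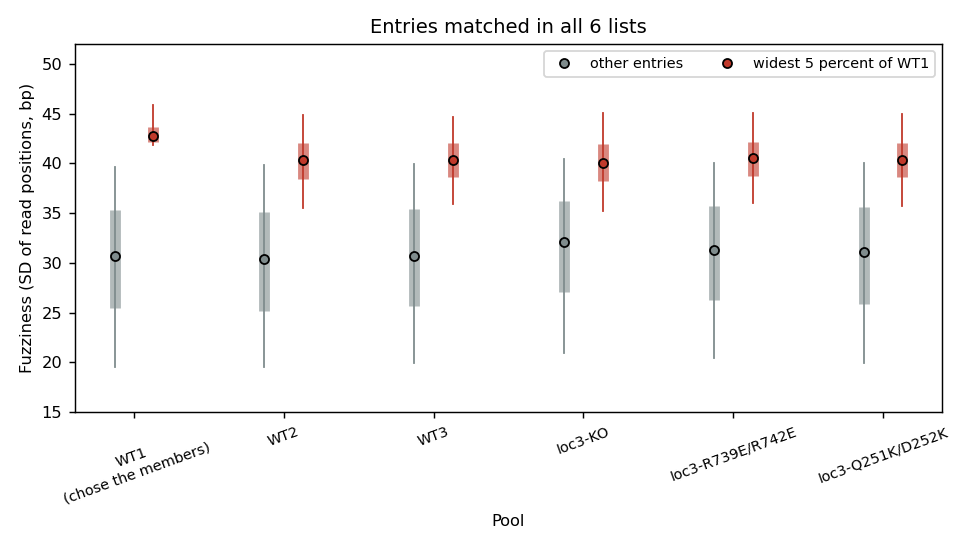
Fuzziness (bp) in each pool for entries matched in all 6 lists, with the 1356 members in red and the other entries in grey. Dots are medians, thick bars the 25th to 75th percentile and thin lines the 5th to 95th percentile. Members stay near 40 bp in every pool, above the median of the other entries.

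Among the sites with the highest minimum over the 5 other lists were the following. An entry inside TUL1 (YKL034W, chromosome XI, 373437), which encodes a Golgi ubiquitin ligase, had 48.9 bp in WT1. It had 47.7 in WT2, 46.1 in WT3, 47.1 in Ioc3-KO, and 46.4 and 48.2 in the point mutants. Its neighbours stood 89 and 82 bp away in WT1, and wild-type and Ioc3 pools overlapped. The entry 17 bp into HSP78 (chromosome IV, 974226), the gene of a mitochondrial disaggregase, had 44.9, 45.6 and 45.1 bp in the wild-type pools and 49.5, 48.2 and 46.9 bp in the Ioc3 pools. Here the 3 Ioc3 pools lay above the wild-type pools, but the entry was not called in any fuzziness comparison described below. EMW1 (chromosome XIV, 45749), an essential gene linked to cell wall upkeep, held 45.4, 45.8, 46.8, 44.9, 44.7 and 46.9 bp in the same pool order. Intergenic examples lay nearest to the start codons of the S-phase cyclin CLB5 (chromosome XVI, 776829, 45.5 to 48.4 bp over the 6 pools) and of the Rheb GTPase RHB1 (chromosome III, 169579, 44.8 to 48.7 bp).

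The member with the highest WT1 value that was matched everywhere lay in PAU19 (chromosome XIII, 922803), of the seripauperin family, with 53.3 bp in WT1 and 45.6 to 48.7 bp in the 5 others. PAU genes, subtelomeric repeats and Ty elements have near-identical copies, and how reads with several matches were placed is not given, so values there are uncertain. Other members at the top of WT1 fell back further. NUP133 (chromosome XI, 595289), a nuclear pore gene, had 49.1 bp in WT1 but 36.8 bp in both WT2 and WT3. Those matches lay 53 to 54 bp from the WT1 summit. FET4 (chromosome XIII, 913961), the low-affinity iron transporter gene, ranged from 30.9 bp in WT2 to 48.4 bp in WT1, with the WT2 summit at 914031. CDC19 (chromosome I, 71947), the pyruvate kinase gene, had 48.1 bp in WT1 and 37.7 to 41.2 bp elsewhere. Its matches lay at 72008 in WT2, 72009 in Ioc3-KO and 72002 in Ioc3-Q251K/D252K, but at 71948 in WT3 and 71964 in Ioc3-R739E/R742E.

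Members were unevenly placed along genes. Coding regions held 3008 of them (83.4%), and 5.29% of the WT1 entries in coding regions were members. Between convergent genes the share was 7.35%, between tandem genes 3.20% and between divergent genes 3.10%. Within 500 bp of a tRNA gene it was 1.86%, and within 10000 bp of a chromosome end 6.49%.

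Inside coding regions the share rose with distance from the start codon, which the rule did not use. It was 1.42% in the first 150 bp, 1.58% from 300 to 500 bp, 3.59% from 750 to 1000 bp and 6.38% from 1000 to 1500 bp. From 3000 to 5000 bp it reached 13.8% (505 of 3672 entries) and beyond 5000 bp 15.2% (141 of 928 entries, in 50 genes). By distance to the stop codon the share was 4.09% in the last 150 bp, 5.57% from 1000 to 1500 bp, 5.13% from 3000 to 5000 bp and 8.01% beyond 5000 bp. Long genes held more members, 11.02% of entries in coding regions of at least 4000 bp against 2.11% in those under 1000 bp. In the first 500 bp the shares were 1.86% in coding regions under 1000 bp, 0.73% from 2000 to 3000 bp (18 members), 0.46% from 3000 to 4000 bp (4 members) and 1.6% from 4000 bp (12 members).

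The same gradient appeared when each list chose its own widest 5 percent. Beyond 5000 bp the shares were 15.2, 16.3 and 16.0% in WT1, WT2 and WT3, and 11.1, 11.2 and 12.5% in the Ioc3 pools. From 3000 to 5000 bp they were 13.8, 14.8 and 14.2% in wild type and 11.1, 12.5 and 12.98% in the Ioc3 pools, again without overlap. The differences were -4.22 and -2.04 percentage points. With 3 pools against 3 the exact two-sided permutation test cannot go below p = 0.1, which both bins reached, and the p adjusted over the 10 distance bins was 0.333, so neither difference passed. Shares of a list always sum to its own 5 percent, so a lower share in 1 bin implies a higher one elsewhere. From 1000 to 1500 bp the Ioc3 mean of 6.51% ± 0.0718 (SD, n = 3) stood above the wild-type mean of 6.12% ± 0.306 (SD, n = 3), also at p = 0.1 in this exact permutation test.

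**Figure D4:**
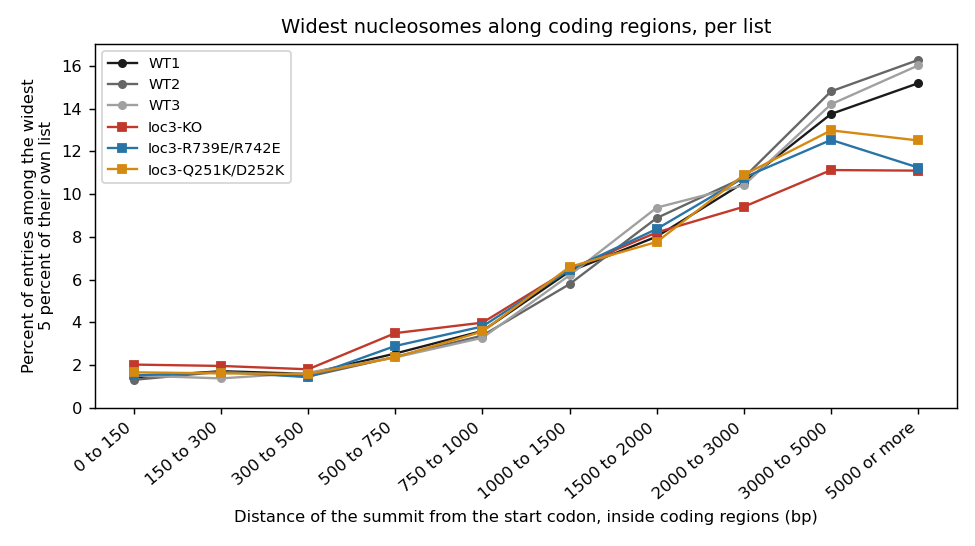
The percent of entries among the widest 5 percent of their own list by distance of the summit from the start codon (bp), for coding regions in each of the 6 pools. All pools rise from under 2.1% near the start codon, and beyond 3000 bp the 3 wild-type pools (circles) lie above the 3 Ioc3 pools (squares).

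The genes with most members were among the longest of the genome. DYN1 (chromosome XI, 535647 to 547925), the dynein heavy chain gene, and REA1 (chromosome XII, 349006 to 363738), the gene of a giant ATPase of ribosome assembly, held 15 members each, out of 88 and 108 entries. HOB2 (chromosome XVI, 760025 to 767494), the gene of a large protein related to lipid transfer proteins, held 14 of 57. The Ras GTPase-activating protein gene IRA1 (chromosome II, 517350 to 526628) held 14 of 69, and TRA1, which encodes a shared subunit of the SAGA and NuA4 acetyltransferases, held 13 of 81. SNQ2, the gene of a drug efflux pump, stood out by density, with 13 of 34 entries (38.2%) in 4506 bp. In its other lists SNQ2 held 6 and 12 of the widest entries in WT2 and WT3 and 10, 5 and 6 in the Ioc3 pools, so its count varied as much between wild-type pools as between genotypes. In all, 1579 of 5877 genes with a qualifying entry held a member, 926 of them a single one.

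By gene group, the enzymes of glycolysis and fermentation held the largest share of WT1 members among the 9 lists, 31 of 240 entries (12.9%) in 16 of 25 genes. CDC19 held 5 of 12 entries, ENO1 (enolase) 3 of 10, and ADH1 (alcohol dehydrogenase), FBA1 (aldolase), PGK1 (phosphoglycerate kinase) and TDH3 (glyceraldehyde-3-phosphate dehydrogenase) 2 each. Some of these, such as ENO1 and ENO2, are near-identical copies whose reads may be shared. The list's share was 9.79% and 12.03% in WT2 and WT3 and 6.25, 8.26 and 9.92% in the Ioc3 pools, so wild-type and Ioc3 pools overlapped (exact two-sided permutation p = 0.2, 0.72 adjusted over the 9 lists). It was the highest of the 9 in each wild-type pool and in Ioc3-Q251K/D252K, while in Ioc3-KO transporters (8.07%) and amino acid synthesis (6.60%) and in Ioc3-R739E/R742E transporters (9.20%) stood above it. The count of members in CDC19 did not recur, at 1 in WT2, 1 in WT3 and 0 in Ioc3-KO.

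Amino acid synthesis genes had 49 members among 667 entries (7.35%), with 6 in GLT1, the glutamate synthase gene, and 5 in LYS2, of lysine synthesis. Plasma membrane and hexose transporter genes had 35 of 496 (7.06%), with 4 in PMA1, the proton pump gene. Genes of chromatin remodelers, Ioc3's own complex among them, had 47 of 720 (6.53%). Heat shock and chaperone genes had 18 of 328 (5.49%), meiosis and sporulation genes, silent in growth, 19 of 486 (3.91%), and cytosolic ribosomal protein genes 27 of 703 (3.84%). The histone genes had 1 of 32, an entry in HHT1. The mitochondrial ribosomal protein genes had 0 of 287, which allows a share of up to 1.05% at 3 entries, against 5.0% of all entries. The lists differ in gene length, with a median entry 694 bp from the start codon in the glycolysis list and 341 bp in the mitochondrial ribosomal list, and the part of length in these shares was not tested.

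Whether single members changed with Ioc3 was tested with limma over the 67233 entries matched in all 6 lists, of which 1356 were members. The members tested are those with a counterpart everywhere and do not stand for all 3605. Calls required p under 0.05 after Benjamini-Hochberg adjustment over all 67233. Each genotype was 1 pool set against WT2 and WT3, so the p of a single genotype rests on the spread between those 2 pools alone. On simulated data such fits gave more false calls than the adjusted p states. The counts and adjusted p of single genotypes below are thus not to be taken at face value, and the counts are to be read beside the background. WT2 and WT3 themselves differed by a median of 1.80 bp in fuzziness and 9 bp in position at the members, against 1.61 and 3 bp at all entries tested.

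In Ioc3-KO 17 members changed in fuzziness, 7 higher and 10 lower, which is 1.25% of those tested, against 1.01% of all entries, so the share was near the background. The members' median difference was -0.31 bp, while all entries tested had a median of 1.22 bp. Of the called entries over the whole genome, 613 were higher and 69 lower. With each pool centred on its own median, 60 members were called, 9 higher and 51 lower (4.42% against 2.02% of all entries), and without the limits on reads and height in the entries fitted 0 were called. Because the members were chosen for high values in 1 pool, the same difference was also taken for the widest 5 percent of each other list. Those chosen in WT2 or WT3 had median differences of -0.54 and -0.30 bp, and those chosen in Ioc3-R739E/R742E or Ioc3-Q251K/D252K had 0.18 and 0.26 bp, against 1.09 to 1.28 bp over all entries of these lists. Those chosen in Ioc3-KO itself had 4.2 bp. In each of these choices other than that by Ioc3-KO the median difference of the widest entries was lower than that over all entries.

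**Figure D5:**
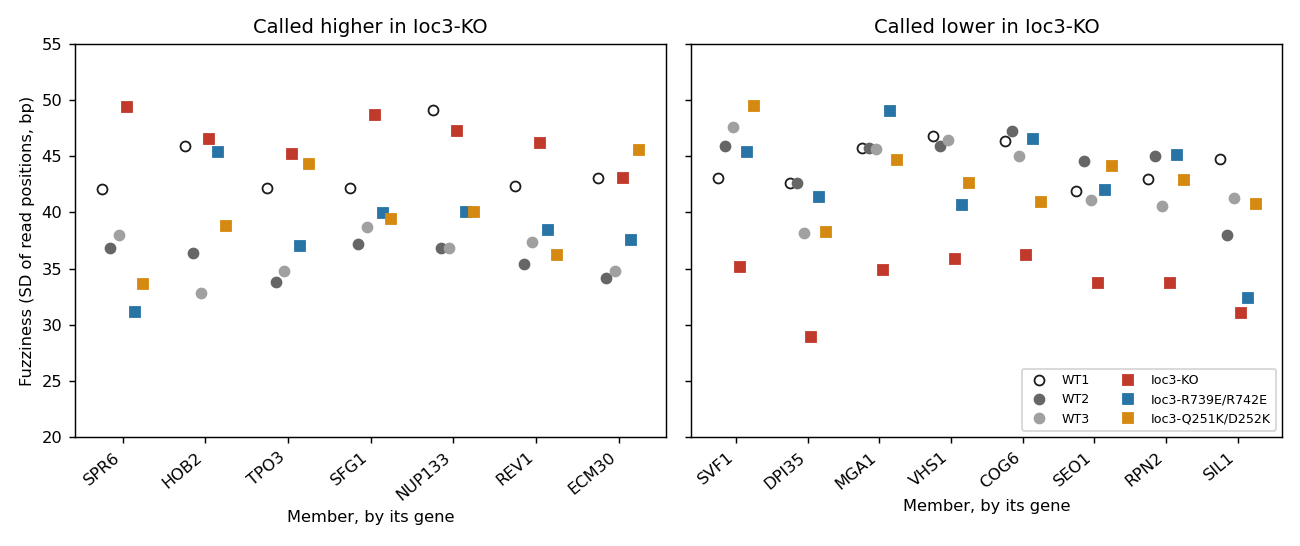
Fuzziness (bp) in the 6 pools for members called higher (left, all 7) or lower (right, the 8 of 10 with the largest difference) in Ioc3-KO. Circles are wild-type pools, with WT1, which chose the members, drawn open, and squares are Ioc3 pools. Each point is 1 pool without replicate error. For 11 of the 17 called, summits of WT2, WT3 and Ioc3-KO lie more than 35 bp apart. Over all 6 pools the summits of TPO3 and ECM30 also span 76 and 50 bp.

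A match within 70 bp of the WT1 summit can take in a neighbouring entry, so the summits behind each call were compared, at a limit of 35 bp chosen after seeing the data. In 8 of the 17 the Ioc3-KO summit lay over 35 bp from the mean summit of WT2 and WT3, as it did for 23.8% of the members tested. In 11 of the 17 at least 1 pair among these 3 pools was over 35 bp apart. That leaves 6 with the entries of these 3 pools at the same place, 2 higher and 4 lower.

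Of the 6, TPO3 (chromosome XVI, 839209), a polyamine exporter gene, had 42.1, 33.8 and 34.8 bp in WT1, WT2 and WT3, 45.2 bp in Ioc3-KO, and 37.0 and 44.3 bp in the point mutants. It rose by 10.91 bp (SE 1.98, limma adjusted p = 0.0215). ECM30 (chromosome XII, 1010429) rose by 8.61 bp, from 34.1 and 34.8 bp in WT2 and WT3 to 43.1 bp, with 43.1 bp also in WT1. In both, WT1 lay near Ioc3-KO, but WT1 chose the members for high values, so its place there is no evidence on these rises. At TPO3 the Ioc3-Q251K/D252K entry lay at 839141, those of the other pools at 839192 to 839217. At ECM30 the entries of the point mutants lay at 1010465 and 1010415, those of the other pools at 1010422 to 1010434.

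The 4 that fell at the same place each had Ioc3-KO as the lowest of the 6 pools. The entry past the end of DPI35 (chromosome XIII, 533138) had 42.6, 42.6 and 38.1 bp in wild type, 28.9 bp in Ioc3-KO, and 41.4 and 38.3 bp in the point mutants, a difference of -11.51 bp (SE 2.15, limma adjusted p = 0.0222). Its 6 summits lay between 533138 and 533145. COG6 (chromosome XIV, 550296), of Golgi transport, had 46.3, 47.2 and 45.0 bp in wild type, 36.2 bp in Ioc3-KO, and 46.5 and 40.9 bp in the point mutants (-9.89 bp, SE 2.02, limma adjusted p = 0.0294). The entry before SEO1 (chromosome I, 10028), a permease gene, had 41.9, 44.6 and 41.1 bp in wild type, 33.7 bp in Ioc3-KO, and 42.0 and 44.1 bp in the point mutants (-9.14 bp, SE 2.08, limma adjusted p = 0.0428). In SIL1 (chromosome XV, 266269), of the endoplasmic reticulum, the values were 44.7, 38.0 and 41.3 bp, then 31.0, 32.4 and 40.7 bp, so Ioc3-R739E/R742E was low as well (-8.65 bp, SE 2.07, limma adjusted p = 0.0488). WT1 chose the members for high values, so its own place above Ioc3-KO is no support for these falls.

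At the other called members the pools' entries lay apart. HOB2 (chromosome XVI, 766672) had 36.4 and 32.9 bp in WT2 and WT3 and 46.6 bp in Ioc3-KO, a difference of 11.95 bp (SE 2.09, limma adjusted p = 0.0196). Its entries lay at 766603 and 766605 in WT2 and WT3, beside the left neighbour of the member at 766596 in WT1, and at 766677 in Ioc3-KO. For SVF1 (chromosome IV, 1167421), a gene of oxidative stress survival, the difference was -11.62 bp (SE 2.0, limma adjusted p = 0.0182), from 45.9 and 47.6 bp in WT2 and WT3 at 1167425 and 1167441 to 35.1 bp in Ioc3-KO at 1167353. The WT1 list had the left neighbour of this member at 1167348.

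MGA1 (chromosome VII, 989103), the gene of a heat shock factor-like regulator, differed by -10.84 bp (SE 1.97, limma adjusted p = 0.0215), with 45.7, 45.7 and 45.6 bp in wild type and 34.8 bp in Ioc3-KO. Its entry in Ioc3-KO lay at 989033, near the left neighbour at 989026 in WT1, and the others at 989102 to 989109. RPN2 (chromosome IX, 218940), of the proteasome, differed by -9.07 bp, with Ioc3-KO at 219003 against 218920 and 218922 in WT2 and WT3. NUP133, REV1 (chromosome XV, 983039), of translesion synthesis, and the entry past the end of SFG1 (chromosome XV, 906110), a gene of filamentous growth, differed by 10.45, 9.75 and 10.72 bp, with the Ioc3-KO summit 53.5, 71 and 56.5 bp from the mean of WT2 and WT3. At these 7 members the values of 2 places are set side by side, and a change in width at 1 nucleosome cannot be told apart from a change in which summits were listed.

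SPR6 (chromosome V, 394567), a sporulation gene, had 42.1, 36.9 and 38.0 bp in WT1, WT2 and WT3, 49.4 bp in Ioc3-KO, and 31.1 and 33.6 bp in the point mutants. The difference from WT2 and WT3 was 11.97 bp (SE 1.98, limma adjusted p = 0.0163), on 54 reads in WT1. Its summits lay at 394564 and 394591 in WT2 and WT3, 394544 in Ioc3-KO, and 394584 and 394581 in the point mutants. The entry before VHS1 (chromosome IV, 955600), a kinase gene, differed by -10.31 bp, with WT2 at 955544, WT3 at 955602 and Ioc3-KO at 955552. VPS53, with Ioc3-KO 36 bp from the mean of WT2 and WT3, and GIP1, with WT2 at 329497 and WT3 at 329426, complete the 10 that fell.

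Against the mean of both point mutants the knockout differed at 3 members, 0.221% of those tested against 0.0149% of all entries. All 3 had the Ioc3-KO summit over 35 bp from the mean of the point mutants' summits, by 38.5, 79.5 and 72.5 bp for SPR6, SVF1 and MGA1. SPR6 was 17.0 bp higher in Ioc3-KO (SE 1.98, limma adjusted p = 0.00268), and SVF1 and MGA1 differed by -12.28 and -11.99 bp (SE 2.0 and 1.97, both limma adjusted p = 0.0411). In Ioc3-R739E/R742E 0 members changed in fuzziness against WT2 and WT3 (161 at an unadjusted limma p under 0.05), with 0.0134% of all entries called. In Ioc3-Q251K/D252K it was 0 members (156 unadjusted) and 0.0% of all entries, and for the 3 Ioc3 pools together 0 members (150 unadjusted, limma) and 0.00149% of all entries. The members' median differences were 0.18 bp in Ioc3-R739E/R742E and -0.05 bp in Ioc3-Q251K/D252K, against 0.59 and 0.35 bp over all entries tested.

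The medians in Ioc3-KO were also taken by spacing, and the difference between the classes was not tested. Members with both neighbours under 120 bp had a median difference of -0.54 bp, and all tested entries so placed had -0.38 bp. Members with 1 such neighbour had -0.35 bp against 0.28 bp, and members with none had 0.17 bp against 1.42 bp. The members' median lay below that of all entries of the same class in each of the 3 classes.

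The position of members varied more between pools than that of all entries tested. WT2 and WT3 summits differed by over 10 bp at 45.4% of the members tested, against 14.2% of all entries tested. In no single genotype was a member called for position against WT2 and WT3 (limma), with 266, 260 and 244 at an unadjusted p under 0.05 in the 3 genotypes, and 0.0% of all entries were called in each. With WT1 added to the wild-type pools, the Ioc3-KO fit called 41 members (3.02% against 1.51% of all entries). WT1 chose the members, and every match was taken within 70 bp of its summit, so that count cannot be read as changes of position. For coding regions, the members' median shift was -1.5 bp in Ioc3-KO, -1.5 bp in Ioc3-R739E/R742E and -1.0 bp in Ioc3-Q251K/D252K, where negative is toward the start codon. Over all entries tested the medians were -0.5, -0.5 and 0.0 bp, and the 25th to 75th percentile of the members ran from -14.0 to 11 bp in Ioc3-KO.

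In the fit of the 3 Ioc3 pools against WT2 and WT3, 22 members were called for position. That is 1.62% of those tested, against 0.302% of all entries, and 0 were called when any 1 of the 5 pools was left out. At a matching limit of 50 bp, with 735 members tested, 0 were called. The differences ran from 37.0 to 97.7 bp, and 16 were of 60 bp or more. Of them 7 exceeded 70 bp, which the matching allows only when wild-type and Ioc3 entries lie on opposite sides of the WT1 summit. A move of 1 nucleosome cannot be told apart here from a change in which summits were listed. ART5 (chromosome VII), an arrestin-related gene, had its WT1 summit at 626059, those of WT2 and WT3 both at 626014, and those of the Ioc3 pools at 626107, 626115 and 626113. WT2 and WT3 thus had an entry on the lower side of the WT1 summit and the Ioc3 pools on the higher side. REV3 (chromosome XVI), the catalytic subunit gene of a translesion polymerase, had summits at 235701 in WT1, 235637 and 235639 in WT2 and WT3, and 235720, 235712 and 235712 in the Ioc3 pools. Here the WT1 summit lay closer to those of the Ioc3 pools, as it did for 12 of the 22. Further differences between listed summits were 76.3 bp in the Ty gene YBL100W-B, 70.8 bp in the condensin gene YCG1 and 63.7 bp in SIP3. WAR1 (a regulator of weak acid resistance) and NOP12 (of ribosome assembly) had -78.5 and -77.0 bp. VTH2, YOR1 (a drug efflux pump) and BOI2 (of polarised growth) had -70.2, -69.0 and -66.8 bp. Each is in the coordinate of the chromosome.

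Peak height gave the largest number of calls. Height is given here as log2 of the peak height over the median of its pool, so 0 is the median entry. In Ioc3-KO 95 members changed, 74 higher and 21 lower, 7.01% of those tested against 4.35% of all entries. In Ioc3-Q251K/D252K 66 members changed (48 higher, 18 lower), 4.87% against 3.09% of all entries, and in Ioc3-R739E/R742E 5 members (3 higher, 2 lower), 0.369% against 0.0997%. For the 3 Ioc3 pools together 27 members changed, 25 of them higher, 1.99% against 1.37%. That count fell to 1 without WT2, 6 without WT3 and 2 without Ioc3-KO, and was 58 without Ioc3-R739E/R742E. With heights as deposited, not divided by the median of the pool, 109 members were called in Ioc3-KO, 55 higher and 54 lower, so the excess of rises rests on the scaling. With WT1 added, 45 members were called in Ioc3-KO and 0 in Ioc3-R739E/R742E. An alternative chosen after seeing the data was a prior variance that follows the mean fuzziness of the entry. With it 87 members were called in Ioc3-KO, 6.42% against 7.98% of all entries, so the order of the 2 shares turned. The median difference was 0.08 at members and 0.06 over all entries in Ioc3-KO. Of the 95 members called there, 36 had the Ioc3-KO summit over 35 bp from the mean summit of WT2 and WT3. In the other comparisons the same held for 4 of the 5 in Ioc3-R739E/R742E, 21 of the 66 in Ioc3-Q251K/D252K and 5 of the 27 for the 3 pools together. At least 1 pair among the pools compared was over 35 bp apart for 47 of the 95, 4 of the 5, 35 of the 66 and 14 of the 27. For Ioc3-Q251K/D252K 15 of the 66 lay on chromosome IV, and a fit without that chromosome called 43 members.

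The changes in height went against those in fuzziness. All 17 members called for fuzziness in Ioc3-KO had a height difference of the opposite sign, and 11 of them were also called for height. MGA1, SVF1, RPN2 and SIL1 fell in fuzziness and rose in height by 0.81, 0.65, 0.83 and 1.20, while SPR6, HOB2 and NUP133 rose in fuzziness and differed by -0.61, -0.78 and -0.69 in height. Of these 7, only SIL1 had the summits of WT2, WT3 and Ioc3-KO within 35 bp of each other. The measures come from the same reads, so they are not separate evidence.

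SIL1, at the last codons of a gene for a chaperone exchange factor, had heights of -1.67, -1.73 and -1.27 in WT1, WT2 and WT3 and -0.30, -0.74 and -0.56 in the Ioc3 pools, so all Ioc3 pools were higher (0.97, SE 0.16, limma adjusted p = 0.013 for the 3 together). Its 6 summits lay between 266267 and 266275. The entry past the end of GUT2 (chromosome IX, 51612), a mitochondrial glycerol-3-phosphate dehydrogenase gene, had -1.04, -2.0 and -1.43 in wild type and -0.81, -0.48 and -0.72 in the Ioc3 pools (1.04, SE 0.16, limma adjusted p = 0.0105), with summits from 51549 in WT2 to 51680 in Ioc3-R739E/R742E. Before CAR1 (chromosome XVI, 339792), the arginase gene, heights were -1.72, -2.75 and -2.40 in wild type and -1.39, -1.69 and -1.90 in the Ioc3 pools, so the ranges overlap, with summits from 339724 in WT2 to 339794 in Ioc3-R739E/R742E. The entry before SMF3 (chromosome XII, 212303), a vacuolar metal transporter gene, rose by 0.98 and that before VHS1 by 0.90.

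Of the 2 members that fell in the 3 pools together, GIS1 (chromosome IV, 637980), the gene of a nutrient-responsive regulator, had -0.24 and -0.12 in WT2 and WT3 and -0.67, -1.35 and -1.48 in the Ioc3 pools. Its WT1 value was -1.41, inside the Ioc3 range. The entries of WT2, WT3 and Ioc3-KO lay at 638044, 638049 and 638042, and those of WT1 and the point mutants at 637980, 637969 and 637970, so different summits were compared. The other was YRF1-6, a subtelomeric helicase gene with many near-identical copies.

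In the fits of single genotypes, called members included MRM2 (chromosome VII, 253982), of mitochondrial RNA methylation, whose upstream entry rose by 1.07 in Ioc3-KO (SE 0.15, limma adjusted p = 0.00285) with all 6 summits within 15 bp, and GIP1 (chromosome II, 329494), a meiotic phosphatase partner, which rose by 1.08 with summits spread over 88 bp. Entries in YNL034W (chromosome XIV, 571584), nearest to the nuclear pore gene GLE2, in the mannosyltransferase gene MNN5 and in ILV3, of branched-chain amino acid synthesis, differed by -1.15, -0.95, -0.88 and -0.84 in Ioc3-KO. Their 6 summits spanned 13, 73, 73 and 11 bp. In Ioc3-Q251K/D252K the entry near YDR215C rose by 1.23 and that in SIR4, a gene of silent chromatin, by 0.99, both on chromosome IV, with summits within 16 and 79 bp. The cell cycle inhibitor gene FAR1 and the endocytosis gene SLA1 differed by -0.91 and -0.86 there, with summits spread over 76 and 110 bp. RSC30 (chromosome VIII, 215547), of the RSC remodeler, was higher by 0.84 in Ioc3-KO and 0.72 in Ioc3-Q251K/D252K, on 511 reads in WT1, where members had a median of 117. Its summits lay at 215539 to 215547 in the wild-type pools and at 215479 or 215480 in the Ioc3 pools.

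Of the gene lists, few members were called. Among the 12 glycolysis members tested, 0 were called for fuzziness in Ioc3-KO, and their median difference was -1.34 bp, with 3 above 0. Among 26 members in remodeler genes 0 were called for fuzziness and 1 for height (RSC30), and among 23 in amino acid synthesis genes 0 for fuzziness and 2 for height (ARG7 higher, ILV3 lower). The other lists had 0 to 13 members tested and 0 called for fuzziness in Ioc3-KO (limma, 228 members at an unadjusted p under 0.05 over all members tested). For height, 1 of the 13 in transporter genes was called, and was lower.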

How the data were processed

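Per the submitters' processing notes, reads were handled with Trimmomatic, Bowtie2 and SAMtools on sacCer3, and the caller of nucleosomes is not given in the sources used here. Per the file headers, each list gives a summit position, the mean and standard deviation of read positions in bp, a peak height and a read count for each nucleosome. The peak height is the summit signal of the authors' track, whose scale the sources used here do not state. The read count per nucleosome was deposited as whole numbers, with nearly equal totals per pool, so scaling to a common depth cannot be told apart from equal sequencing. Both replicates of a group were joined by the authors. Precision is limited by a median of 134 to 139 reads per entry.

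Each WT1 entry was matched to the nearest entry of every other list within 70 bp. Genes came from the RefSeq table of the sacCer3 assembly, with strand taken from each systematic gene name, and a member belongs to the coding region that holds it, otherwise to the nearest start codon. Fuzziness and position in bp and log2 height over the median of the pool were fitted with limma 3.58.1 in R 4.3.3 (lmFit, eBayes), with WT2 and WT3 as reference. The fit of 3 Ioc3 pools has 3 residual degrees of freedom and those of single genotypes have 1, with the lone pool assumed to vary like wild type. Tested on simulated data, the single genotype fits gave more false calls than the adjusted p states, so their counts are to be read beside the background. Python 3.11.15 with pandas 2.3.3, numpy 2.4.6, scipy 1.17.1 and matplotlib 3.10.9 did the rest.

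The members and gene lists were chosen with earlier results of these data known. Named were the 8 members of highest WT1 fuzziness with a match in every list, the 8 with the highest minimum elsewhere, up to 8 called members per direction for fuzziness and 5 for position and height, up to 3 per gene list, and the 6 genes with most members. The text names a part of these, and the enzyme and transporter genes named with their counts of members were taken after their values were seen. Alternatives were the matching limit, mutual matching, the limits, centring, adding WT1, leaving out pools or chromosome IV, robust and trended priors, mean read positions and other shares of the list.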

Additional observations from a re-analysis of the deposited data

Results flagged for a closer look

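At 3 members the knockout differed from the mean of both point mutants in the test of that difference itself (limma, adjusted p under 0.05 over all entries tested). The SPR6 entry (chromosome V, 394567) was 17.0 bp wider in Ioc3-KO, at 49.4 bp against 31.1 and 33.6 bp in the point mutants. The SVF1 entry (chromosome IV, 1167421) differed by -12.3 bp, at 35.1 bp against 45.4 and 49.5 bp. The MGA1 entry (chromosome VII, 989103) differed by -12.0 bp, at 34.8 bp against 49.0 and 44.6 bp. At all 3 the entries compared lay at different summits. The SVF1 and MGA1 entries of Ioc3-KO were 79.5 and 72.5 bp from the mean summit of the point mutants and within 10 bp of the left neighbour of the member in WT1, and the SPR6 entry was 38.5 bp away. A change in width at 1 nucleosome there cannot be told apart from a change in which summits were listed. Each genotype is 1 pool, and the fits with mutual matching, the 50 bp limit, WT1 added, no limits on reads and height or a trended prior each called 1 member, in the higher direction.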

How the results depend on the processing

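No paired analysis was possible because both replicates of each group are joined in 1 list. The fits of single genotypes could not be repeated without WT2 or WT3, which would leave no residual degrees of freedom. Every value here is a count of members called or a value in other pools, the cause of its change was not tested unless fewer entries were tested, and the trended prior and the choice of members in other lists were added after seeing the data. Robust priors moved none of the 13 counts by over 1.5 times, and dropping the limit on height in WT1 moved none of the 5 median fuzziness values out of its interval.

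Calls for fuzziness in Ioc3-KO against WT2 and WT3 (17) were 9 at a matching limit of 50 bp (735 members tested), 0 with no filter on reads and height and 60 with centred pools. Centring gave 10 in Ioc3-R739E/R742E and 11 in Ioc3-Q251K/D252K (0 each before). Against the point mutants (3) the count was 1 with the trended prior, WT1 added, the 50 bp limit, mutual matching or no filter, and 22 with centring. Position calls of the 3 Ioc3 pools (22) were 0 with the trended prior, 0 at 50 bp, 11 with WT1 added, 12 with mutual matching, 6 with mean read positions, and from 0 to 0 with 1 pool left out. WT1 added gave 41 position calls in Ioc3-KO (0 before). WT1 chose the members and all matches were taken around its summits, so counts with WT1 added are not independent of that choice.

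Height calls of the 3 Ioc3 pools (27) were 15 at 50 bp, 11 without the filter, 5 with heights as deposited, and from 1 to 58 with 1 pool left out. In Ioc3-KO (95) they were 45 with WT1 added, 50 at 50 bp and 30 without the filter. In Ioc3-R739E/R742E (5) they were 0 with WT1 added, 1 at 50 bp, 2 with mutual matching and 1 without the filter. In Ioc3-Q251K/D252K (66) they were 36 with WT1 added, 35 at 50 bp, 22 without the filter and 43 without chromosome IV.

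The share of members again among the widest, in the order WT2, WT3, knockout, R739E/R742E and Q251K/D252K, was 52.3, 52.5, 39.3, 47.9 and 48.0% for the widest 10 percent of both lists, 32.0, 31.5, 21.9, 30.5 and 26.4% for the widest 2 percent, and 44.6, 42.9, 31.05, 40.2 and 38.9% at 50 bp. The knockout had the lowest share of the 5 under each of these. Median fuzziness in that order was 41.3, 41.3, 40.7, 41.3 and 41.2 bp at 50 bp. Members chosen in Ioc3-R739E/R742E and in Ioc3-Q251K/D252K had medians of 40.56 and 40.58 bp in WT2 and 40.9 and 40.95 bp in Ioc3-KO. Near 120 reads per entry, WT2 and WT3 differed by a median of 1.8 bp in fuzziness at the members tested, so many members differed by more between these pools. A change of that size or somewhat above it at 1 member cannot be told from that spread. The smallest member difference called in Ioc3-KO was 8.5 bp.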
